A study of Mus musculus with 2 samples.

Results

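The 39 genes described here encode the proteins of glucose use: glucose and lactate transporters, the enzymes of glycolysis, the gate into the mitochondrion at pyruvate dehydrogenase, the pentose phosphate pathway and the control of the hypoxia-inducible factor HIF-1. They were chosen by symbol for these roles, and all 39 were found among the 54531 genes of the table. RNA was sequenced from haematopoietic stem cells (HSCs) sorted from mouse bone marrow, with 1 library per genotype. The control library came from Angptl2fl/fl mice, in which the gene of the secreted protein ANGPTL2 is flanked by loxP sites. The deletion library came from Cdh5-Cre;Angptl2fl/fl mice, which carry the same floxed gene and a Cre recombinase under the promoter of the endothelial cadherin gene Cdh5, and which the labels call Angptl2-deficient in endothelial cells. The Cdh5 promoter is also active in the embryonic endothelium from which HSCs arise, and the labels do not state whether Cre was inducible, nor the age, sex or number of the mice. The control library's description and column name speak of Cdh5 and Cre, against its title and genotype, so whether the controls carried Cre is not settled by the labels.

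Glycolysis splits glucose into pyruvate in the cytosol and yields ATP without oxygen. Pyruvate is then reduced to lactate and exported, or enters the mitochondrion, where pyruvate dehydrogenase feeds it to the citric acid cycle unless its kinases (PDK) switch it off. The pentose phosphate pathway branches off after the hexokinase step and supplies NADPH and ribose. HSCs are known to live in a marrow with little oxygen and to rely strongly on glycolysis, and HIF-1 raises many glycolytic genes when oxygen is scarce.

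The table gives FPKM, a fragment count divided by the length of the gene's exons and scaled to 1000000 fragments. The values of most genes fell on whole fragment numbers, from which the depths of the control and deletion libraries were 17378600 and 16843100 fragments. Mitochondrially encoded genes held 8.91% of the control library's FPKM total and 13.7% of the deletion library's. Angptl2 itself was at 0.27 FPKM and 0.18 FPKM, from 29 and 19 fragments, too few to check a genotype whose deletion the labels place in other cells. Of the HSC markers, Kit was well expressed, at 54.3 FPKM in control cells and 48.8 FPKM in deletion cells. The narrower HSC markers Slamf1 and Hoxb5 lay below 1 FPKM in both libraries. The sorted cells also held RNA of other lineages. Summed over 5 primary granule genes of neutrophil precursors, the level was 1021 FPKM (control) and 2681 FPKM (deletion), and over 10 genes of later neutrophils 2556 and 1453 FPKM. Over 8 macrophage and monocyte genes it was 41.2 and 23.2 FPKM, over 10 erythroid genes 2560 and 2945 FPKM, and over 6 megakaryocyte genes 58.4 and 151 FPKM. The erythroid sum was led by Car1 and Car2, while 6 of the 10 erythroid genes were lower in the deletion library. None of the markers in these lineage sums was at 0 in either library. Of 6 endothelial markers, which summed to 9.89 and 8.30 FPKM, Pecam1 was the highest at 3.84 and 3.55 FPKM. Cdh5 was at 0.027 FPKM (2 fragments) in the control and listed at 0 in the deletion library. Of 5 T and NK cell markers Cd3e, Cd3d and Cd8a were listed at 0 in the deletion library, but had only 6, 2 and 11 fragments in the control. Nkg7 was at 29.1 and 78.0 FPKM. The part of these other cells in the values below was not tested, and in bulk RNA fewer cells of a type and less RNA per cell cannot be told apart.

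On the log2 scale defined below, the largest differences were lower Eno2, Slc16a3, Slc2a3, Pdk1 and Aldoc and higher Pgam1 and Pdk3 in the deletion library. The other glucose metabolism genes differed less on that scale. Of the 38 whose mean reached 1 FPKM, 0 were 2-fold higher in the deletion library, where 2.47% of all 12325 genes at that mean were, and 0 were 2-fold lower, against 3.38% of all genes. With so low a share among all genes, a count of 0 among 38 does not set these genes apart. The ratio is the deletion library's FPKM over the control library's, on a log2 scale after adding 1 to each, so differences of low genes appear smaller than they are. At 1.5-fold the numbers were again 0 higher (5.74% of all genes) and 0 lower (6.08%). At a lower threshold, a log2 ratio of 0.32 in size, 2 genes were higher, Pgam1 and Pdk3, against 13.8% of all genes, and 6 were lower, Slc16a3, Slc2a3, Pdk1, Aldoc, Slc2a1 and Pfkfb2, against 14.4%. The 39th gene, Eno2, at 1.24 FPKM in the control and 0.35 FPKM in the deletion library, fell short of that mean.

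The log2 ratios of the 38 genes ran from -0.53 to 0.51 around a median of -0.0037, with quartiles at -0.14 and 0.16. Those of all 12325 genes ran from -5.80 to 4.88 around a median of -0.011, with quartiles at -0.20 and 0.18. The glucose metabolism genes split into 19 above equality, where 48.4% of all genes lay, and 19 below it, where 51.6% lay. Rescaling both libraries to a common FPKM total moved the median of all genes to -0.15 and put 8 of the 19 higher genes below equality (Gpi1, Pfkp, Pgk1, Pdha1, Pdhb, Tkt, Taldo1 and Hif1a). The other 30 genes, 11 higher and 19 lower, kept their side under the 4 scalings computed. Since each genotype has 1 library, nothing here was checked on replicates and no p-values were computed. The words higher and lower compare these libraries only.

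**Figure D1:**
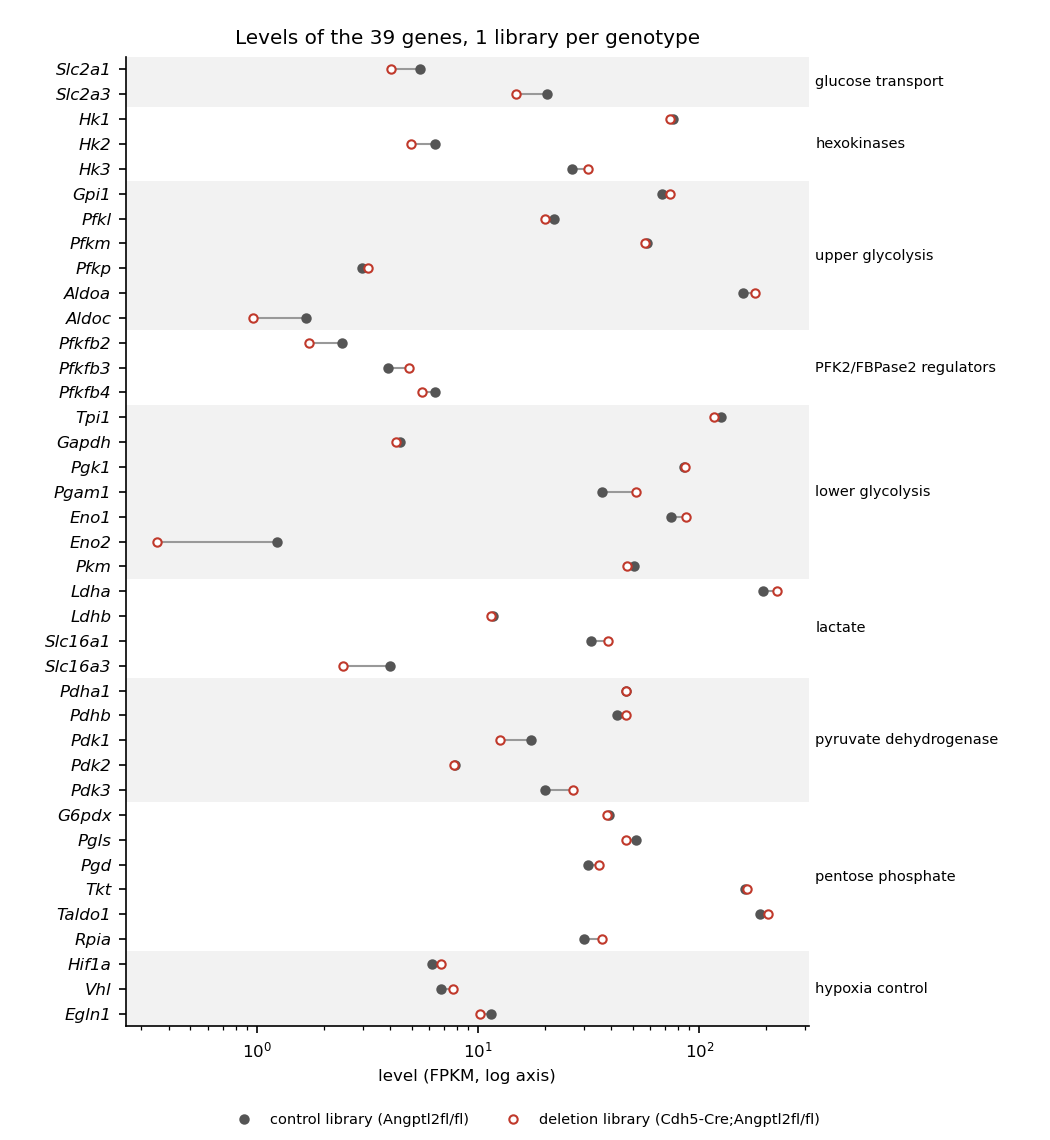
Level of each of the 39 genes in FPKM on a log axis, filled points for the control library and open points for the deletion library, grouped by role, with 1 library per genotype and no error bars. Most pairs of points nearly coincide, and the widest gap is that of Eno2, at 1.24 and 0.35 FPKM.

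Levels spanned a wide range within each library. The highest was Ldha, at 195 and 225 FPKM in the control and deletion libraries, and the lowest was Eno2. The median of the 39 genes was 26.7 FPKM (control) and 31.5 FPKM (deletion), against 7.80 and 7.63 FPKM for all genes at a mean of at least 1 FPKM. In each library 5 of the genes reached 100 FPKM (Ldha, Taldo1, Tkt, Aldoa and Tpi1), 21 lay from 10 to 100 FPKM and 13 lay below 10 FPKM. Together the 39 genes took 0.458% of the control library's FPKM total and 0.436% of the deletion library's, with sums of 1737 and 1833 FPKM. FPKM was divided by the length of all exons annotated for a gene, so the order of levels between genes depends on that length as well as on the mRNA.

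Fragment numbers give a counting interval for each ratio, here an exact 95% interval of the plain ratio, which covers counting error only. A wider interval was taken with fragments divided by 6, since duplicate reads are not separate molecules. Of 37 glucose metabolism genes with whole fragment numbers and a mean of at least 1 FPKM, 12 had an interval above equality, where 26.8% of 11713 genes did, and 14 below it, where 30% did. With fragments divided by 6 the interval stayed above equality for 10 (Ldha, Eno1, Aldoa, Slc16a1, Rpia, Pdk3, Hk3, Pgd, Taldo1 and Gpi1), against 8.29% of all genes, and below it for 3 (Slc2a3, Pdk1 and Slc16a3), against 10% of all genes. Without that division the interval of Hk1, at a log2 ratio of -0.046, also lay clear of equality. Intervals narrow with more fragments, and the glucose metabolism genes were more abundant, with a control median of 26.7 FPKM against 7.80 FPKM. Their shares are therefore not comparable like for like with those of all genes. Gpi1 and Taldo1 are among the genes that moved below equality with a common total. The others of the 10 then ran from 0.022 (Pgd) to 0.26 (Pdk3), with Ldha at 0.062. Slc2a3, Pdk1 and Slc16a3 were then at -0.60, -0.60 and -0.76.

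**Figure D2:**
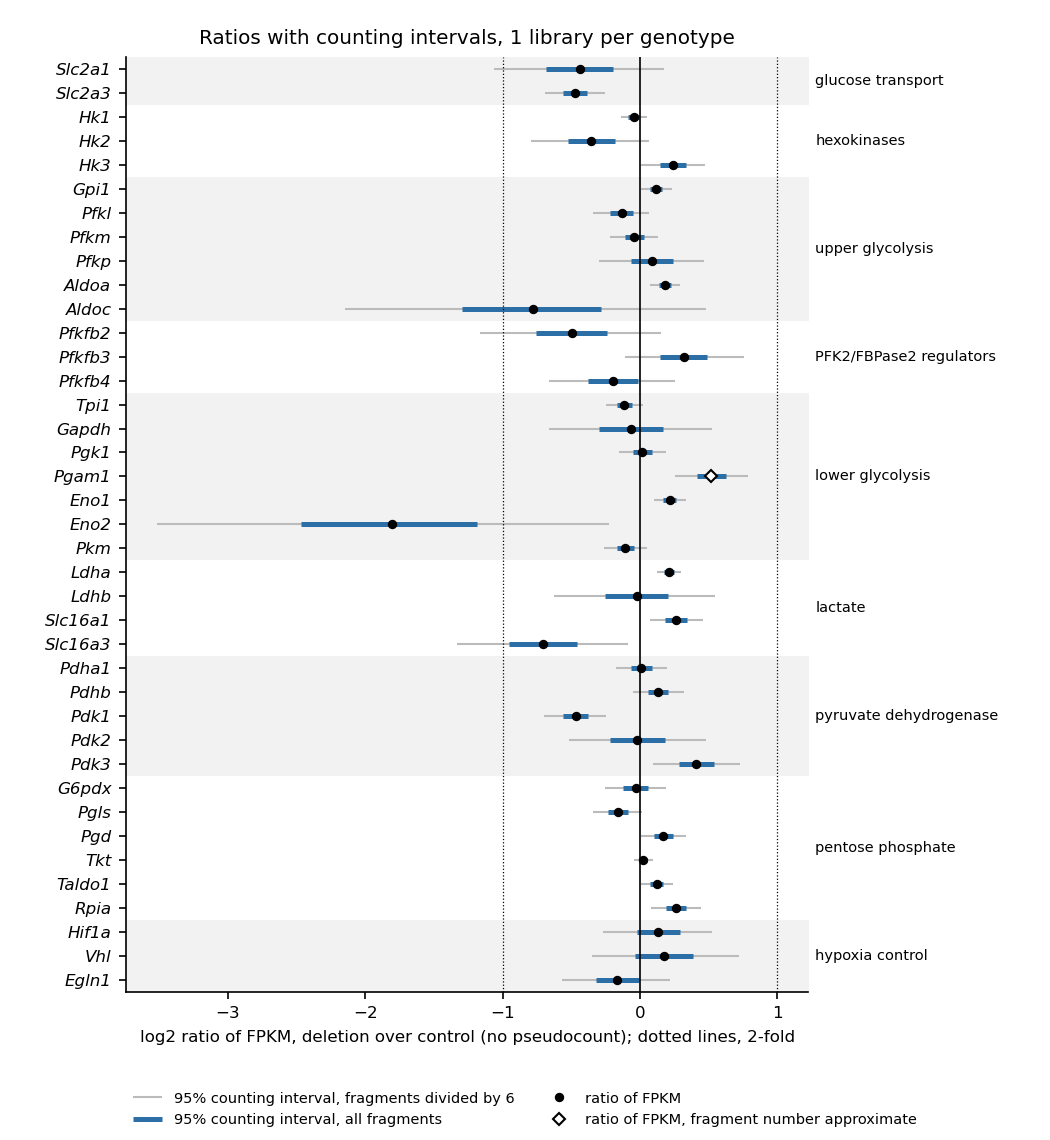
Plain log2 ratio of FPKM, deletion over control, for each of the 39 genes, with the 95% counting interval from all fragments (thick) and from fragments divided by 6 (thin), and dotted lines at 2-fold. Eno2 alone lies past 2-fold, at -1.81 from 101 and 28 fragments, and the open diamond of Pgam1 marks an approximate fragment number.

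Glucose enters through the facilitative transporters GLUT1 (Slc2a1) and GLUT3 (Slc2a3), and both transcripts were lower in the deletion library. Slc2a3 (chr6:122727809-122801640, minus strand, GRCm38) was at 20.6 FPKM (2590 fragments) in the control and 14.8 FPKM (1811 fragments) in the deletion library. Its log2 ratio was -0.45, and the plain ratio had a counting interval of -0.56 to -0.38, or -0.69 to -0.26 with fragments divided by 6. Slc2a1 (chr4:119108711-119137983, plus strand) was at 5.48 and 4.05 FPKM, from 334 and 239 fragments, with a log2 ratio of -0.36. Its interval of -0.68 to -0.19 widened to -1.06 to 0.17 with fragments divided by 6. The balance of the pair was alike in both libraries, with Slc2a3 at 3.75 times Slc2a1 in the control and 3.67 times in the deletion library. The summed level of the pair was 26.1 FPKM in the control and 18.9 FPKM in the deletion library. GLUT3 is also abundant in neutrophils and other white blood cells, and the sums of the later neutrophil and macrophage markers were lower in the deletion library too. The primary granule markers went the other way, with sums of 1021 and 2681 FPKM. The part of these cells in the values of Slc2a3 and Slc2a1 was not tested.

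Hexokinases trap glucose in the cell by phosphorylating it. Hk1, the broadly expressed isozyme, was at 76.0 FPKM in the control and 73.6 FPKM in the deletion library and held 69.7% and 66.9% of the hexokinase level. Hk3, known from myeloid cells, was at 26.7 and 31.5 FPKM, a log2 ratio of 0.23. Hk2, the insulin- and hypoxia-regulated isozyme, was at 6.35 and 4.97 FPKM, a log2 ratio of -0.30. The ratio of Hk1 to Hk3 was 2.85 in the control and 2.34 in the deletion library, a log2 difference of -0.29 with an interval of -0.39 to -0.18, or -0.54 to -0.033 with fragments divided by 6. Such a ratio of isozymes within a library does not depend on how the libraries were scaled. Primary granule markers of myeloid precursors, all 5 of them 2-fold or more above the control, moved with Hk3. The later neutrophil markers went the other way, with 10 of 10 below equality, as did 6 of 7 macrophage and monocyte markers, and the part of these cells in Hk3 was not tested.

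In upper glycolysis, Gpi1 (glucose-6-phosphate isomerase) was at 68.1 and 73.9 FPKM in the control and deletion libraries. Phosphofructokinase 1 commits sugar to glycolysis, and its muscle-type gene Pfkm led at 58.3 and 56.6 FPKM, before the liver-type Pfkl at 22.0 and 20.1 FPKM and the platelet-type Pfkp at 2.98 and 3.17 FPKM. The ratio of Pfkm to Pfkl was 2.65 and 2.82, and the interval of that log2 difference, -0.017 to 0.20, included equality. Aldoa, the aldolase of most tissues, was at 157 and 178 FPKM, a log2 ratio of 0.18. Aldoc, the brain-type aldolase, was at 1.66 and 0.96 FPKM from 94 and 53 fragments, a log2 ratio of -0.44. Aldoa exceeded Aldoc 94.8-fold in the control and 185-fold in the deletion library. The log2 difference of 0.97 had an interval of 0.46 to 1.48, which included equality with fragments divided by 6, at -0.30 to 2.33.

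The bifunctional PFK2/FBPase2 enzymes set the level of fructose 2,6-bisphosphate, the activator of phosphofructokinase 1. Pfkfb3, the isozyme with the strongest kinase activity, was the higher one in the deletion library, at 4.86 FPKM against 3.90 FPKM in the control. Pfkfb2 was at 1.73 against 2.44 FPKM and Pfkfb4 at 5.58 against 6.39 FPKM. Pfkfb3 held 30.6% of the summed level of the 3 genes in the control and 40.0% in the deletion library. The log2 difference of the Pfkfb4 to Pfkfb3 ratio was -0.51, with an interval of -0.77 to -0.26 that widened to -1.16 to 0.11 with fragments divided by 6. Which of the 3 is the most abundant depends on the length used: per length of 1 transcript, Pfkfb3 lay above Pfkfb4 in both libraries.

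**Figure D3:**
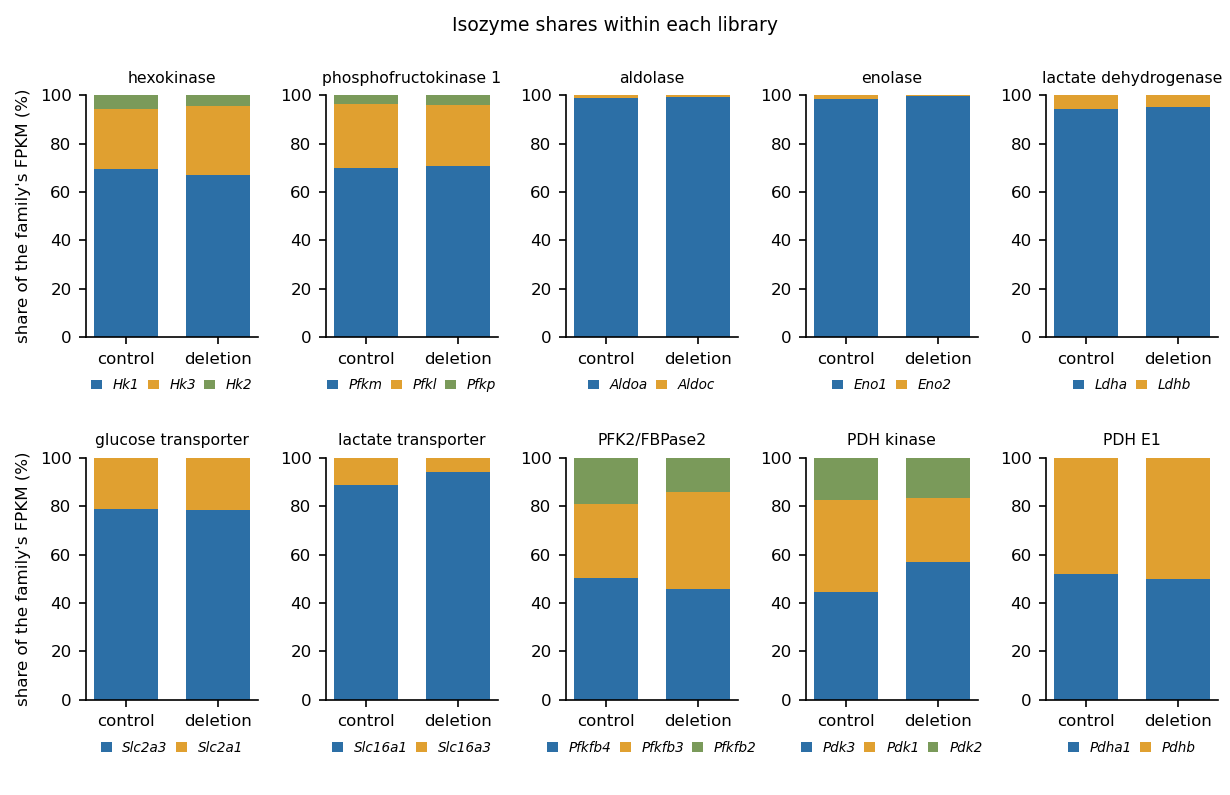
Share of each isozyme in the summed FPKM of its family, in percent, in the control library (left bar) and the deletion library (right bar) of 10 families, with no error bars. Shares differ most in the PDH kinases, where Pdk3 holds 44.3% and 56.8%, and little in the phosphofructokinases, where Pfkm holds 70.0% and 70.9%.

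In lower glycolysis, Tpi1 (triose phosphate isomerase) was at 126 FPKM in the control and 116 FPKM in the deletion library, and Pgk1 (phosphoglycerate kinase) was at 84.8 and 85.8 FPKM. Pgam1 (chr19:41911923-41918660, plus strand), the phosphoglycerate mutase, had the highest log2 ratio of all 38 genes, 0.51, with 36.2 FPKM in control and 51.9 FPKM in deletion cells. It did not fall on whole fragments with the gene length used here, so its fragment numbers, about 1248 and 1733, and its interval of 0.41 to 0.62 are approximate. Its full coding sequence is shared with a processed pseudogene, Pgam1-ps2, listed at 0.23 and 1.16 FPKM. Pkm (pyruvate kinase M) was at 50.6 and 47.0 FPKM.

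Enolase makes phosphoenolpyruvate and has a ubiquitous form, Eno1, and a neuronal form, Eno2. Eno1 was at 74.6 FPKM in the control and 86.7 FPKM in the deletion library, a log2 ratio of 0.21. Eno2 (chr6:124760053-124769673, minus strand) was at 1.24 and 0.35 FPKM, from 101 and 28 fragments. Its plain log2 ratio of -1.81 had an interval of -2.46 to -1.19, or -3.51 to -0.22 with fragments divided by 6, and on the scale with a pseudocount of 1 it was -0.72. The ratio of Eno1 to Eno2 was 60.4 in the control and 245 in the deletion library, a log2 difference of 2.02 with an interval of 1.40 to 2.68, or 0.43 to 3.73 with fragments divided by 6. Eno2 held 1.63% of the enolase level in the control and 0.406% in the deletion library.

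Gapdh, the glyceraldehyde-3-phosphate dehydrogenase often used as a reference gene, was listed at only 4.44 FPKM in the control (319 fragments) and 4.24 FPKM in the deletion library (295 fragments). It stood at rank 33 of the 39 genes in both libraries. Its FPKM was divided by 4133 exon bases, while the coding transcript used here has 1273 bases. Per length of that transcript it would be at 14.4 FPKM in the control and 13.8 FPKM in the deletion library. The interval of its log2 ratio, -0.30 to 0.17, included equality. The mouse genome holds many processed copies of this gene, and 94.4% of its 1077 coding bases recur at 95% identity or more, over 100 bases or more, in 81 other annotated genes, 76 of them pseudogenes. The stretch from coding base 403 to 522 is shown in Gapdh (chr6:125162918-125163037, minus strand, GRCm38) and in the copies Gm7336 (chr7:51747021-51747140, plus strand) and Gm5559 (chr5:95862038-95862157, plus strand), because the aligned part of Gm7336 is identical to Gapdh over 1017 coding bases, so reads from it have no unique origin. Coding bases are counted from the start codon of the GENCODE M21 transcript. The capital marks the base that differs from Gapdh.
Gapdh: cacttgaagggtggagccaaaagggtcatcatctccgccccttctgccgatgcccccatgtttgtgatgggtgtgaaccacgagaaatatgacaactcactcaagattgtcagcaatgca
Gm7336: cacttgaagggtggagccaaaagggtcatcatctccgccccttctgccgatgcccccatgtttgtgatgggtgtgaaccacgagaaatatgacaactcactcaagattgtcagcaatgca
Gm5559: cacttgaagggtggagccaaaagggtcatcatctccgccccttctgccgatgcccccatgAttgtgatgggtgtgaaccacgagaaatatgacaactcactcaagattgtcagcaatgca
Gm7336 is identical to Gapdh in this stretch and Gm5559 differs at 1 base.

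The pseudogene Gm7336 (chr7:51746647-51747878) was listed above Gapdh itself, at 8.83 FPKM (189 fragments) in the control and 18.3 FPKM (379 fragments) in the deletion library. That is a 2.07-fold difference, with an interval of the plain log2 ratio of 0.79 to 1.31. In fragments, Gapdh with 319 lay above Gm7336 in the control and with 295 below it in the deletion library. Per length of 1 transcript, at 14.4 and 13.8 FPKM, the order was the same as in fragments. Gm5559 was at 6.26 and 7.11 FPKM and Gm12070 at 2.24 and 2.67 FPKM. The 81 copies summed to 26.0 FPKM in the control and 38.3 FPKM in the deletion library. With Gapdh included the sum was 30.4 and 42.6 FPKM, and Gapdh's own row held 14.6% of it in the control and 9.95% in the deletion library. That share depends on the exon length used for Gapdh. Counted in fragments, the sum was 812 in the control and 1013 in the deletion library, a log2 ratio of 0.36 with an interval of 0.23 to 0.50, on the other side of equality from Gapdh's own row. The level of Gapdh in these libraries is therefore uncertain in both size and direction, and the copies' values were looked up after Gapdh's low level was seen.

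Copies or overlapping genes touched other glucose metabolism genes as well. Of the 39, 14 had coding sequence in another annotated gene by that criterion and 25 had none. For Slc2a1, Pfkfb2, G6pdx and Hif1a, every such gene overlaps the position of the gene itself. These matches therefore need not be copies at another place. In 9 of them over 80% of the coding bases recurred (Gapdh, Gpi1, Pgk1, Pgam1, Eno1, Pkm, Ldha, Ldhb and Pdhb). With the exon lengths used, only Gapdh was listed below any of its copies in the control library. The copies of Eno1 summed to 9.81 FPKM in the control and 7.88 FPKM in the deletion library, and those of Tpi1 to 5.20 and 7.66 FPKM. The genes found for Pkm summed to 5.15 and 3.99 FPKM, of which Gm49759, lying within Pkm itself, held 4.03 and 2.46 FPKM.

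**Figure D4:**
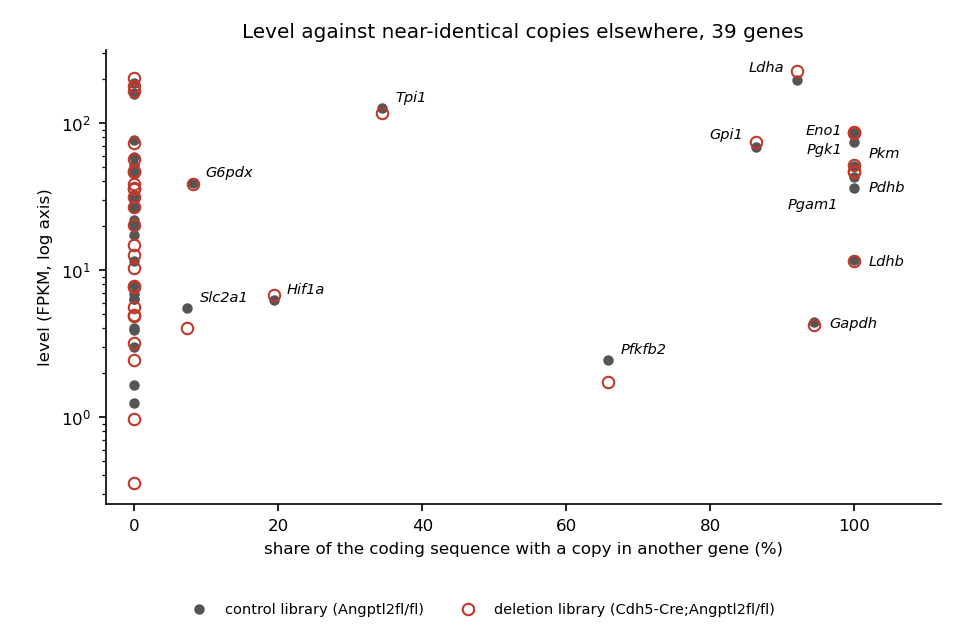
Level in FPKM on a log axis against the share of a gene's coding bases found at 95% identity or more in another annotated gene, in percent, for the 39 genes, with filled points for the control and open points for the deletion library. The other gene may overlap the gene itself, as for Pfkfb2. Ldha and Gapdh lie close together on the horizontal axis, at 92.0% and 94.4%, and far apart in level.

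Lactate dehydrogenase turns pyruvate into lactate, and Ldha, which encodes the subunit of rapidly glycolytic tissue, far exceeded Ldhb, the heart-type subunit. Ldha (chr7:46841475-46855627, plus strand) was counted with 11210 fragments in the control and 12568 in the deletion library. Its log2 ratio was 0.21, with an interval of 0.17 to 0.25 that stayed above equality, at 0.12 to 0.30, with fragments divided by 6. Ldhb was at 11.7 and 11.5 FPKM. The ratio of Ldha to Ldhb was 16.7 in the control and 19.7 in the deletion library. That log2 difference of 0.23 had an interval of 3.1e-05 to 0.47, barely clear of equality. With fragments divided by 6 the interval included equality, at -0.34 to 0.84.

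The sequence before the start of each of these 2 genes is shown as 250 bases ending next to the start. It comes from the RefSeq-derived promoter table (GRCm38.p6). The pair was chosen because Ldha had the highest FPKM of the 39 genes and Ldhb, which serves the same reaction, was far lower. Per length of 1 transcript, Tkt lay above Ldha in the control library, at 367 against 355 FPKM. Capitals mark ACGTG on either strand, which is 1 of the 2 core spellings of the element bound by HIF-1 and also part of CACGTG, the E-box bound by MYC and the MondoA and Mlx pair. The Ldha window is chr7:46845554-46845803, plus strand, and the Ldhb window is chr6:142507958-142508207, minus strand.
Ldha: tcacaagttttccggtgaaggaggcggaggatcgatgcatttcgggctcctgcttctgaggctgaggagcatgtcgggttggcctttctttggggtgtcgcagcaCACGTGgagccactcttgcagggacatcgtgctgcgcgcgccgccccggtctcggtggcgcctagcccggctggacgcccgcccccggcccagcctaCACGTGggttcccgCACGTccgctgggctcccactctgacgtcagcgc
Ldhb: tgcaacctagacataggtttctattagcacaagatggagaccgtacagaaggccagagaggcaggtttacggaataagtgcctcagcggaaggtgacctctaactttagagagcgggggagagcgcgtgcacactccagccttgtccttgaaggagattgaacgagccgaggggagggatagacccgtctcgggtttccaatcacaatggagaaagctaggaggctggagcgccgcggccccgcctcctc
The Ldha window held 5 matches over both strands, since CACGTG reads the same on each strand and counts on both, and the Ldhb window held 0. GCGTG, the other core of the HIF-1 element, had the reverse pattern, with 0 matches in this Ldha window and 1, not capitalized, in the Ldhb window. A second Ldha window in the table held 0 matches to ACGTG and 1 to GCGTG, so the contrast depends on the core and the window chosen. A match describes letters and not a bound site. Promoter windows were found for 38 of the 39 genes, 55 windows in all. ACGTG lay in at least 1 window of 18 of these 38 genes (47.4%), against 25.9% of 8453 genes with a promoter entry and a mean of at least 1 FPKM, and per window in 40.0% against 22.4%. GCGTG lay in 26 of the 38 genes (68.4%) against 50.9%. CACGTG, which contains ACGTG, lay in 7 of the 38 (18.4%) against 10.3%. Among the 8 genes past a log2 ratio of 0.32 in size, windows of Slc16a3, Slc2a1, Pfkfb2, Pdk3 and Pgam1 held ACGTG. Those of Pdk1 and Aldoc did not, and Slc2a3 had no window. These genes were picked by their ratios, and 18 of all 38 genes with windows held ACGTG. A link between the motif and the ratios was not tested.

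Lactate leaves or enters cells through the monocarboxylate transporters MCT1 (Slc16a1) and MCT4 (Slc16a3), and the pair lay on opposite sides of equality. Slc16a1 (chr3:104638668-104658462, plus strand), the high-affinity carrier, was at 32.2 FPKM in the control and 38.6 FPKM in the deletion library, a log2 ratio of 0.25. Slc16a3 (chr11:120948480-120960868, plus strand), the low-affinity exporter of glycolytic cells, was at 4.003 and 2.46 FPKM from 370 and 220 fragments. Its log2 ratio of -0.53 was the lowest of the 38 genes. The interval of its plain ratio was -0.95 to -0.46, or -1.33 to -0.089 with fragments divided by 6. Slc16a1 exceeded Slc16a3 8.05-fold in the control and 15.7-fold in the deletion library, a log2 difference of 0.97 with an interval of 0.71 to 1.23, or 0.32 to 1.62 with fragments divided by 6. MCT4 is known from activated macrophages and neutrophils. The deletion library had 2 of 7 macrophage markers, at a mean of at least 1 FPKM, 2-fold or more lower after adding 1 FPKM. As plain ratios Csf1r (5.89-fold), Adgre1 (3.53-fold), C1qa (2.34-fold) and C1qb (2.10-fold) were lower. C1qc and Cd68 were lower by less, and Vcam1 was higher. Of the later neutrophil markers 8 of 10 were at least 2-fold lower there, while the primary granule markers were higher, 5 of 5 by at least 2-fold. The part of these cells in Slc16a3 was not tested.

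At the mitochondrial gate, the pyruvate dehydrogenase subunits were listed close together. Pdha1 was at 46.4 FPKM in the control and 46.7 FPKM in the deletion library, and Pdhb at 42.6 and 46.6 FPKM. Per length of 1 transcript these subunits lay apart, Pdha1 at 60.8 and 61.3 FPKM and Pdhb at 109 and 119 FPKM. Their kinases, which inactivate the complex, did not move alike. Pdk1 (chr2:71873224-71903858, plus strand), a known HIF-1 target, was at 17.4 FPKM (2350 fragments) in the control and 12.6 FPKM (1646 fragments) in the deletion library. Its log2 ratio was -0.44, with an interval of the plain ratio of -0.56 to -0.38, or -0.70 to -0.25 with fragments divided by 6. Pdk3 (chrX:93764607-93832201, minus strand) was at 20.1 and 26.7 FPKM from 895 and 1152 fragments. Its log2 ratio was 0.39, with an interval of 0.28 to 0.54, or 0.095 to 0.73 with fragments divided by 6.

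The mix of PDK transcripts thus differed between the libraries. Pdk2 was at 7.88 FPKM in the control and 7.77 FPKM in the deletion library. The ratio of Pdk3 to Pdk1 was 1.16 in the control and 2.13 in the deletion library, a log2 difference of 0.88 with an interval of 0.72 to 1.04, or 0.49 to 1.28 with fragments divided by 6. Per length of 1 transcript the same ratio was 0.934 and 1.72, so which kinase led in the control library depends on the length used. The size of the difference between libraries does not depend on it.

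In the pentose phosphate pathway 2 non-oxidative enzymes were the most abundant. Taldo1 (transaldolase) was at 187 FPKM in the control and 204 FPKM in the deletion library, and Tkt (transketolase) at 161 and 164 FPKM. Rpia, the ribose-5-phosphate isomerase and also non-oxidative, was far below them at 30.1 and 36.2 FPKM, a log2 ratio of 0.26. Of the oxidative enzymes, which make NADPH, G6pdx (glucose-6-phosphate dehydrogenase) was at 38.99 and 38.1 FPKM, Pgls (lactonase) at 51.9 and 46.4 FPKM, and Pgd (phosphogluconate dehydrogenase) at 31.4 and 35.3 FPKM. The 6 genes summed to 500.5 FPKM in the control and 523 FPKM in the deletion library.

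Hif1a, the oxygen-regulated subunit of HIF-1, was at 6.20 FPKM in the control and 6.80 FPKM in the deletion library. Vhl, part of the ligase that marks it for destruction, was at 6.82 and 7.71 FPKM, and Egln1 (PHD2), the oxygen-sensing prolyl hydroxylase, at 11.5 and 10.2 FPKM. The intervals for Hif1a (-0.025 to 0.29) and Vhl (-0.034 to 0.39) included equality, and that for Egln1 (-0.32 to -0.0075) did so with fragments divided by 6. HIF-1 is controlled mainly as a protein, which these data do not measure.

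Further genes of the same metabolism were read from 8 lists of 91 genes. At a mean of at least 1 FPKM were 64, of which 0 were 2-fold higher (2.47% of all genes) and 0 2-fold lower (3.38%). With so low a share among all genes, a count of 0 among 64 does not set them apart. There were 32 above equality (48.4% of all genes) and 32 below (51.6%), with a median log2 ratio of 0.029. Of other glucose transporters, 3 of 3 measured at that mean were below equality: Slc2a6 at 1.95 FPKM in the control and 0.85 FPKM in the deletion library, Slc2a8 at 15.7 and 11.9 FPKM, and Slc2a9 at 1.46 and 1.33 FPKM. As a plain ratio Slc2a6 was past 2-fold lower, which the added 1 FPKM hides. The hepatic transporter Slc2a2 was listed at 0 in both.

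Other glycolysis isozymes had 1 of 5 above equality, Pgam2 (muscle phosphoglycerate mutase) at 4.32 and 6.36 FPKM in the control and deletion libraries. The next, Eno3, the muscle enolase, was at 10.3 and 9.83 FPKM, and the lowest was Adpgk, an ADP-dependent glucokinase, at 16.5 and 12.1 FPKM. Pklr, whose red cell isozyme serves erythroid cells, was at 131 and 106 FPKM, above Pkm in both libraries. The ratio of Pklr to Pkm was 2.59 in the control and 2.26 in the deletion library, with intervals of 2.496 to 2.69 and 2.17 to 2.36. These intervals cover counting error only, and the ratio depends on the exon lengths used. Pkm was divided by 5001 exon bases, while its coding transcript has 2432. The ratio was not recomputed per length of 1 transcript. Erythroid markers were abundant, with 10 of 10 measured at a mean of at least 1 FPKM. Of the 10, 4 lay above equality and 6 below, 1 of them, Alas2, at least 2-fold lower in the deletion library after adding 1 FPKM. As a plain ratio Hbb-bt was also past 2-fold lower, at 2.06-fold. Their sum was higher there, at 2945 against 2560 FPKM, led by Car1 (1629 against 1315 FPKM) and Car2 (832 against 703 FPKM). Alas2, Hba-a1, Hba-a2, Hbb-bs and Hbb-bt were lower there. The part of erythroid cells in Pklr was not tested.

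Genes of pyruvate entry and oxidation had 6 of 9 above equality and a median of 0.17, or 5 of 9 and 0.022 with a common total. The highest were Mpc1, a subunit of the mitochondrial pyruvate carrier, at 5.03 FPKM in the control and 8.61 FPKM in the deletion library, and Pdhx, which anchors the E3 enzyme of the complex, at 6.81 and 9.12 FPKM. Lowest were Pdpr, the regulatory subunit of the phosphatase that reactivates pyruvate dehydrogenase, at 7.11 and 4.58 FPKM, and its catalytic subunit Pdp1 at 1.75 and 1.28 FPKM. The interval of the plain log2 ratio stayed clear of equality with fragments divided by 6 for Mpc1 (0.10 to 1.49) and Pdpr (-1.10 to -0.17).

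Other pentose phosphate genes had 4 of 5 above equality, with Prps2 (12.7 FPKM in the control and 16.7 FPKM in the deletion library) and Prps1 (43.1 and 49.9 FPKM), which activate ribose for nucleotide synthesis, highest. H6pd, the hexose-6-phosphate dehydrogenase of the endoplasmic reticulum, was lowest at 10.4 and 7.97 FPKM, followed by Rpe at 12.4 and 13.2 FPKM. With a common total 3 of the 5 lay above equality. Gluconeogenesis and glycogen genes had 6 of 14 above and a median of -0.014. Gys1 (glycogen synthase) at 4.11 and 6.34 FPKM and G6pc3 (the glucose-6-phosphatase whose loss causes neutropenia) at 36.0 and 47.0 FPKM were highest. Pcx (pyruvate carboxylase), at 7.63 and 6.24 FPKM, and Pygl (glycogen phosphorylase), at 14.8 and 12.7 FPKM, were lowest.

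Of 9 further hypoxia control genes 5 lay above equality, with a median of 0.22, or 0.082 with a common total. Egln3 (PHD3), itself induced by HIF, was highest at 3.85 FPKM in the control and 6.13 FPKM in the deletion library, followed by Cul2, the scaffold of the VHL ligase, at 10.7 and 14.9 FPKM. Hif3a was lowest at 8.73 and 6.35 FPKM, followed by Egln2 at 29.8 and 25.9 FPKM. HIF targets outside metabolism had 8 of 9 above equality and a median of 0.11, but 3 of 9 and -0.013 with a common total. Mxi1 (10.1 and 12.5 FPKM) and Car9 (2.30 and 2.94 FPKM) were highest, and Kdm3a (10.2 and 9.15 FPKM) and Ddit4 (32.0 and 33.4 FPKM) lowest.

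Glucose-sensing and growth regulators had 2 of 10 above equality and a median of -0.15, or 1 of 10 and -0.30 with a common total. Mlx, the partner of the glucose-sensing MondoA factor, was highest at 14.2 FPKM in the control and 17.7 FPKM in the deletion library, followed by Myc at 63.2 and 66.6 FPKM. Arrdc4, a MondoA target that lowers glucose uptake, was at 3.15 and 2.28 FPKM, and Rptor, the scaffold of mTORC1, at 6.14 and 4.94 FPKM. These lists were described by their counts and medians, and no list was tested against other genes.

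**Figure D5:**
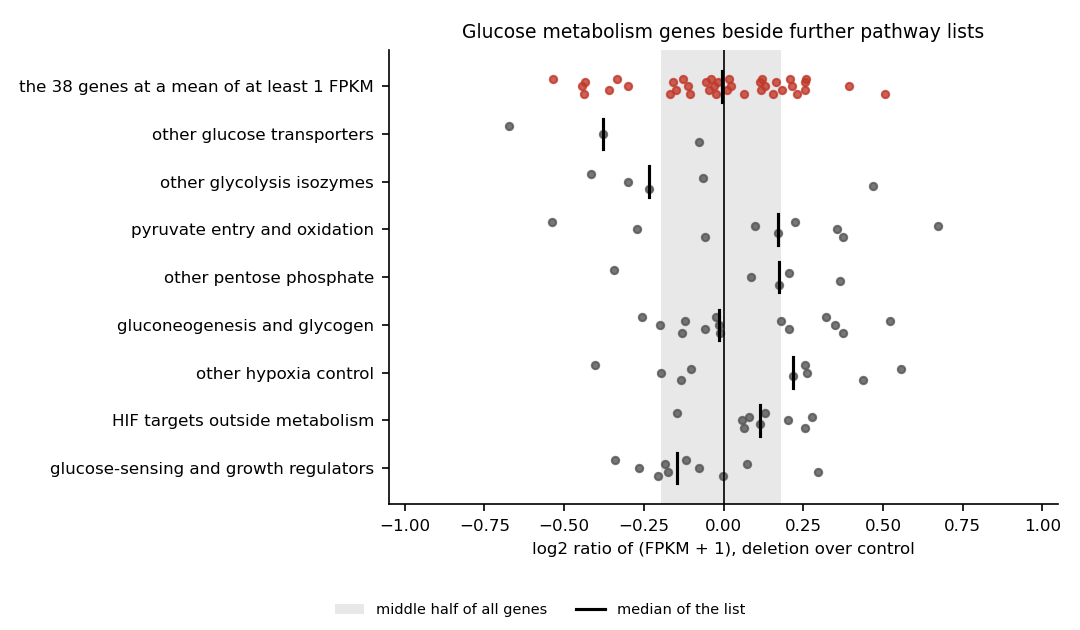
Log2 ratio of (FPKM + 1), deletion over control, for the 38 glucose metabolism genes (top row) and for the genes of 8 further lists at a mean of at least 1 FPKM, each point 1 gene, with the list median as a bar and the middle range between the quartiles of all genes, -0.20 to 0.18, shaded. No point reaches 2-fold, a log2 ratio of 1 in size.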

How the data were processed

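RNA of sorted bone marrow HSCs was extracted with TRIzol and a column and sequenced as paired 150-base reads, per the labels' protocols, with 1 library per genotype. The authors deposited FPKM values for 54531 Ensembl genes. Bowtie 0.12.2 and the build mm8 appear in the submitters' processing notes with no stated role, and how fragments were counted, and on which annotation, is not given in the sources used here. Multi-mapped reads may therefore have been placed, split or dropped, which bears on genes with copies. Columns were matched to samples by the sample description.

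Symbols came from a gene name table, and exon lengths and positions from GENCODE M21 (GRCm38), not the build in the notes. Of 54531 genes, 54408 had both a symbol and an exon length. Aldoa's symbol also belongs to a second identifier, at 2.81 and 2.15 FPKM, which was left out. FPKM times exon length gave fragment numbers within 0.02 of a whole for 96.5% (control) and 96.1% (deletion) of genes above 0 with a length. Intervals are Clopper-Pearson at 95%. A pseudocount of 1 FPKM, a minimum mean of 1 FPKM and a threshold of 2-fold were used. Copies were found with BLAST 2.17.0 of coding sequence against GENCODE transcripts. Levels were computed with Python 3.11.15, pandas 2.3.3, numpy 2.4.6 and scipy 1.17.1, and the computation was tested on simulated data.

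All 39 genes are named, with the 2 highest and 2 lowest of each further list at the minimum mean and any past 2-fold. Slc2a2 and Pklr, and the copies of Gapdh, were named after their values were seen. The genes and lists were chosen with earlier results of these data known. No test across samples was possible. The labels do not say whether animals were pooled. Alternatives were other pseudocounts, minimum means, thresholds and scalings, the mean in place of the median, and fragments divided by 6. Leaving out genes with copies and using the length of 1 transcript were added after seeing the data.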

Additional observations from a re-analysis of the deposited data

How the results depend on the processing

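The counts of 0 genes 2-fold higher and 0 genes 2-fold lower were also 0 with pseudocounts of 0.1 and 5, with both rescalings and centring, without a minimum or with a minimum mean of 5 FPKM, at 1.5-fold, and without the 9 genes over 80% in copies. At a log2 ratio of 0.32 in size they were 2 higher and 6 lower. Each setting was changed alone, so Eno2, at a plain log2 ratio of -1.81, could not be counted at 2-fold. The minimum mean left it out, and without a minimum the pseudocount of 1 brought it to -0.72. The median log2 ratio was -0.15 with a common total, which moved the median of all genes to -0.15 as well. Under the other alternatives it lay near equality, at -0.072 without mitochondrially encoded genes in the total, -0.031 without the genes over 80% in copies, and 0.017 at a minimum mean of 5 FPKM. The sign of so small a median depends on these choices.

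Of the 39 single ratios, 24 moved past their counting interval with a common total, 9 without mitochondrially encoded genes in the total, and 1 with each other pseudocount, Eno2 at -1.56 with 0.1 and Slc16a3 at -0.27 with 5. Per length of 1 transcript, all 28 level ratios between isozymes within a library changed beyond their counting interval. In 22 the order was kept, as for Pfkm over Pfkp in the control (19.5 to 7.01) and Hk1 over Hk3 (2.85 to 5.52), and in 6 it turned round. The log2 ratio of Pfkfb4 to Pfkfb3 became -0.57 in the control and -1.09 in the deletion library, that of Pfkfb4 to Pfkfb2 -0.17 in the control, that of Pdk3 to Pdk1 -0.099 in the control, and that of Pdha1 to Pdhb -0.84 and -0.96. These follow from the lengths alone. No paired analysis was possible because there was 1 library per genotype. Below about 100 fragments, as for Eno2 and Aldoc, depth limits what a ratio can show.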
